A study of Mus musculus with 16 samples.

Results

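The genes Dlk1, Sox9, Gata2, Gata3, Pdgfra, Pdgfrb, Runx1 and Runx2 are 8 factors of preadipocytes or known brakes on fat cell formation, taken from the 22225 protein-coding genes of the annotation by name and not by their measured values. Each was examined in its gene body plus 50 kb on each side. The cells, 3T3-L1, are mouse preadipocytes grown as a line, and they turn into adipocytes after a mixture of insulin, dexamethasone and isobutylmethylxanthine (MDI) is added to confluent cells. ChIP-seq, which maps where a protein or histone mark sits on DNA, had been run on 16 libraries of these cells, and each library is represented by its list of enriched islands. H3K27ac, a mark of active enhancers and promoters, was profiled at 0 h and 48 h of MDI in cells carrying an empty retroviral vector and in cells carrying SETD5-V5, a V5-tagged SETD5 driven by a weak viral promoter, with 2 libraries (A and B) for each of the 4 conditions. SETD5-V5 itself was profiled with a V5 antibody at 0 h and 6 h (2 libraries each). H3K4me1, which marks enhancers whether primed or active, at 0 h and 48 h, and endogenous SETD5 at 0 h and 6 h, have 1 library each and no replicate check. The labels name the SETD5-V5 virus for the H3K4me1 libraries, where the study's methods describe cells without it, and give no virus for SETD5-V5 libraries A.

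Preadipocytes hold themselves back from differentiation with signals at the cell surface and with transcription factors. DLK1 (Pref-1) is a membrane protein whose extracellular part is shed by the protease ADAM17 and restrains adipogenesis, in part by keeping SOX9 expressed. GATA2 and GATA3 are zinc finger factors of the preadipocyte that restrain Pparg and C/EBP proteins, PDGFRα and PDGFRβ are the receptor tyrosine kinases for platelet-derived growth factors and mark mesenchymal progenitors, and RUNX1 and RUNX2 are DNA-binding partners of CBFβ, RUNX2 being the main regulator of the osteoblast fate. SETD5 is a SET-domain protein found with the corepressor NCoR and the histone deacetylase HDAC3.

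The measure used is the length of a gene window that islands cover, in kb. The H3K27ac lists hold 31292 to 39949 islands over 103.4 to 121.5 Mb, the SETD5-V5 lists 6666 to 35573 islands over 35.3 to 196.1 Mb, the H3K4me1 lists 49926 to 50276 islands and the endogenous SETD5 lists 2132 to 3293. The lists give no reads per island, so the depth behind an island is unknown, and a window outside all islands was below the threshold of the caller. As a check of the cells, promoters of 7 of 7 fibroblast markers carried H3K27ac in both libraries of every condition and those of 7 markers of other cell types in none. Of 7 adipocyte markers, 3 had a promoter island at 0 h in both vectors, 6 at 48 h with empty vector and 5 at 48 h with SETD5-V5. The summed coverage of the adipocyte marker windows was 168.2 to 202.0 kb at 0 h and 335.8 to 387.2 kb at 48 h with empty vector, against 158.8 to 177.8 kb and 198.4 to 206.4 kb with SETD5-V5. That of the fibroblast markers was 217.3 to 244.4 kb and 165.8 to 180.0 kb with empty vector, and 227.4 to 228.2 kb and 165.4 to 178.4 kb with SETD5-V5. The part of this shift in the results for the 8 genes was not tested.

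Starts and elements that the results return to are shown first, 4 because an island was listed in some conditions only and 2 because H3K27ac was listed in all, as 300 bases of mm9 read 5′ to 3′. Capitals mark letters that match 1 of 5 short motifs on either strand, in which N is any base. They are TTGCNNAA for the C/EBP factors, GATAAG for the GATA factors, TGTGGT for the RUNX factors and GGAATG for the TEAD factors, and for AP-1 the letters TGA and TCA with any 1 base between them. Those at annotated starts hold the 250 bases before the start and 50 from it on. The first pair is both starts of Gata2, at chr6:88143635-88143934 and chr6:88148408-88148707 on the plus strand. The upstream start lost its H3K27ac island by 48 h and the downstream start kept it.
Gata2 upstream start: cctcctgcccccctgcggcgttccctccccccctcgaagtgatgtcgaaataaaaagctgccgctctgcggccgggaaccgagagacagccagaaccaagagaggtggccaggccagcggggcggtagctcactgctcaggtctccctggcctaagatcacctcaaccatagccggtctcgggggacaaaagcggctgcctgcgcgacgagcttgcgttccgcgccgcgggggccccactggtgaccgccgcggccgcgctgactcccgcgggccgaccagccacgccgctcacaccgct
Gata2 downstream start: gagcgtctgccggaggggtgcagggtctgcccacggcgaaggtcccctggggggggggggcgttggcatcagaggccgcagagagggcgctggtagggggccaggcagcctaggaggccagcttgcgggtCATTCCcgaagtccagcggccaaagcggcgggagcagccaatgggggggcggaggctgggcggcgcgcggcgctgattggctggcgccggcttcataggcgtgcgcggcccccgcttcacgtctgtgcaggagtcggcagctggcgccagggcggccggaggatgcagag
Dlk1 upstream start: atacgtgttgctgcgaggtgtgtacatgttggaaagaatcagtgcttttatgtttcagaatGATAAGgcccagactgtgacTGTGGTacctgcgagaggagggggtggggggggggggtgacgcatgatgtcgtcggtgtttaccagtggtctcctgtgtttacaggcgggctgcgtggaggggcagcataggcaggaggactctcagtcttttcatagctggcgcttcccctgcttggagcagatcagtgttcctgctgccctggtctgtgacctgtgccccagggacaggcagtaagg
Runx2 distal start: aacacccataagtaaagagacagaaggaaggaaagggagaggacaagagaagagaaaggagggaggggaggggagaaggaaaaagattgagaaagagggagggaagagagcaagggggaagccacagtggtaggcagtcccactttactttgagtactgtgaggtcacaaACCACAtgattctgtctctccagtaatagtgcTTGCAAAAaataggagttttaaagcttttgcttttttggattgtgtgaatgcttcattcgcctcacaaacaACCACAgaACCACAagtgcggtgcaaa
Runx2 intronic element: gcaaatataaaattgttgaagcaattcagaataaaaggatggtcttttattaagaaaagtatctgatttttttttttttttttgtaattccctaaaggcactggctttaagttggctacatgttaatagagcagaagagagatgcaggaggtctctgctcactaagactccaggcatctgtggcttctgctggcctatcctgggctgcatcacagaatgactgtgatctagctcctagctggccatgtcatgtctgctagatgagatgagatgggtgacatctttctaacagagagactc
Runx1 intronic element: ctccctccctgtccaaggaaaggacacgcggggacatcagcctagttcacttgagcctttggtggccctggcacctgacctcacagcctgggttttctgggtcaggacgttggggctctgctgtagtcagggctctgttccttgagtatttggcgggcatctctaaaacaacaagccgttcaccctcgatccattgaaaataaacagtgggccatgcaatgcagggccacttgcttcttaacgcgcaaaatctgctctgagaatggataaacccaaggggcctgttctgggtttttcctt
The Dlk1 sequence (chr12:110690809-110691108, plus strand) spans its first annotated start, where H3K27ac was listed in all 8 libraries and H3K4me1 at 0 h only. The Runx2 distal start (chr17:44951527-44951826, minus strand) had H3K27ac islands only in SETD5-V5 cells, all of low rank in their lists. It also lies within the overlapping gene Supt3h. The Runx2 intronic element (chr17:44767751-44768050) is the middle of a region acetylated in all 4 libraries at 0 h and in none at 48 h, and the Runx1 intronic element (chr16:92620751-92621050) is the middle of a region acetylated in no library at 0 h and in both empty vector libraries at 48 h. Both are given on the plus strand.

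The Runx2 distal start held 3 RUNX matches and 1 C/EBP match, the Dlk1 start 1 RUNX and 1 GATA match, the Gata2 downstream start 1 TEAD match, and the other 3 stretches none of the 5 motifs. Over the same stretch of all 22225 genes, the RUNX letters were found in 15.2%, the C/EBP letters in 10.3%, the GATA letters in 6.8%, the TEAD letters in 13.4% and the AP-1 letters in 6.8%. In the middle 300 bases of the 33703 islands of H3K27ac library A at 0 h with empty vector, the shares were 19.1%, 13.6%, 8.1%, 17.4% and 10.6%. These matches describe the letters of each stretch and are no measure of binding.

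The first comparison asked how the active mark at these genes changed over the first 48 h of differentiation in empty vector cells. H3K27ac coverage fell at Dlk1, Gata2 and Runx2. It did not pass the test in either direction at Sox9, Gata3, Pdgfra, Pdgfrb or Runx1. In limma, fitted to log2(covered kb + 1) over 16934 genes and all 8 libraries, 14.0% of all genes were called lower and 25.1% higher at an adjusted p (Benjamini-Hochberg) under 0.05, beside 3 of the 8 genes lower and 0 higher. The median log2 change was -0.08 over the 8 genes and 0.14 over all genes. An exact permutation test of 2 against 2 libraries cannot give a p below 0.333, so the spread was pooled over genes and groups. How often the 0 h and 48 h values of a gene are apart was not counted over all genes. Where H3K27ac values are described below as apart or overlapping, that describes the libraries and is no result about these genes.

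**Figure D1:**
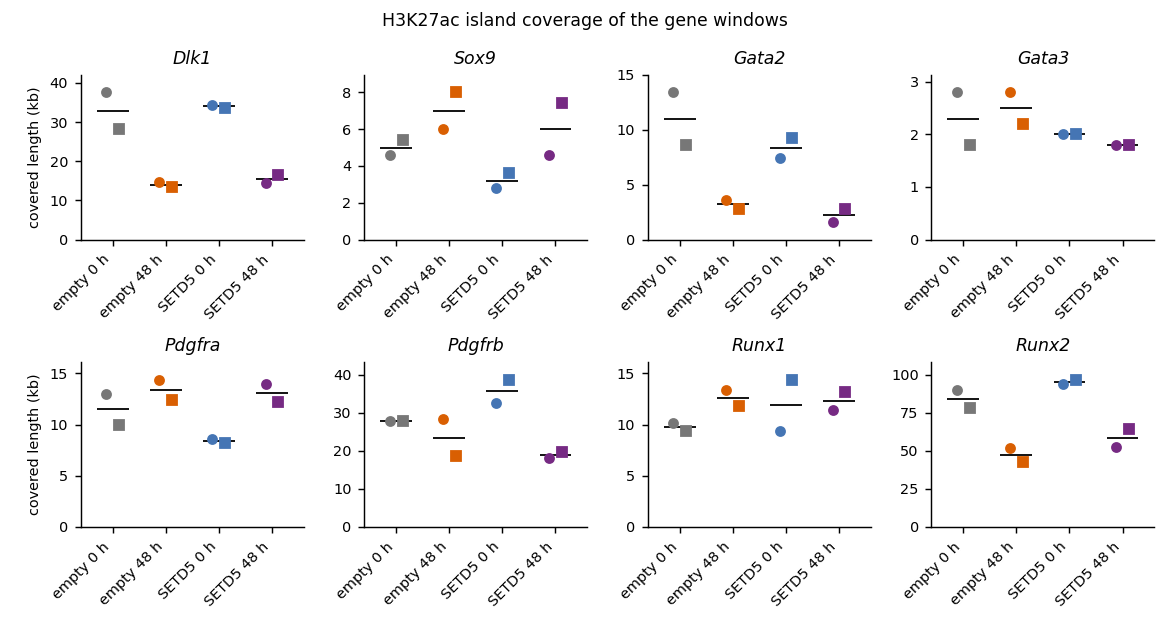
Length of each gene window covered by H3K27ac islands (vertical axis, kb), by condition. Circles are libraries A, squares libraries B and bars the mean of both. At Dlk1, Gata2 and Runx2 both 48 h values lie below both 0 h values in each vector.

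Dlk1 carried the densest acetylation of the 8 windows at 0 h, 34.0% of its 110.5 kb in library A with empty vector, where the median gene had 4.2%. With empty vector, H3K27ac covered 37.6 and 28.2 kb at 0 h and 14.6 and 13.4 kb at 48 h. With SETD5-V5 it covered 34.4 and 33.6 kb at 0 h and 14.4 and 16.6 kb at 48 h. All 4 values at 48 h were below all 4 at 0 h, a log2 change of -1.16 ± 0.16 (SE, adjusted p = 0.00046 in limma) with empty vector and -1.09 ± 0.16 (adjusted p = 0.00112) with SETD5-V5. The highest-scoring island of the window had 129 to 197 islands above it in its list at 0 h and 1088 to 3194 at 48 h, so the locus also moved down the ranking of each list. Counted as numbers of islands instead of length, the change was called in neither vector (adjusted p = 0.0539 and 0.134).

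The loss at Dlk1 was uneven along the locus. A domain 46.5 kb upstream of the start (chr12:110630601-110644600, intergenic) lay mostly beyond the window, which starts at 110641033. This domain shrank from 11.2 and 10.0 kb to 1.6 and 3.4 kb with empty vector and from 13.2 and 12.4 kb to 2.2 and 5.4 kb with SETD5-V5. With empty vector its 0 h islands ended at 110641800 and 110641400, so little of this loss counts in the tested length. The neighbouring domain 27.1 kb upstream (chr12:110645401-110664000) went from 16.4 and 15 kb to 11 and 9.0 kb with empty vector. The island over the start itself (chr12:110689801-110696600) remained in all 8 libraries and covered 6.6 and 5.6 kb at 0 h and 2.2 and 2.6 kb at 48 h with empty vector. Thus the promoter kept a shorter island, while most of the length lost from the window lay upstream. H3K4me1 covered 28.8 kb of the window at 0 h and 22.0 kb at 48 h.

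**Figure D2:**
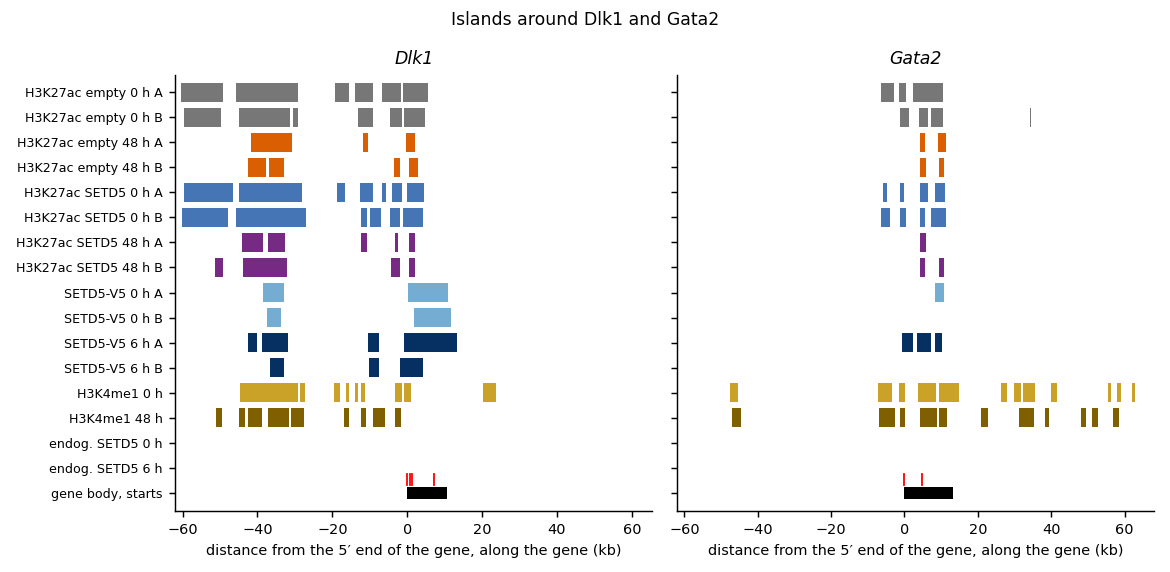
Islands of all 16 libraries around Dlk1 and Gata2, by distance from the 5′ end of the gene (horizontal axis, kb). Each bar is an island, the black bar is the gene body and red ticks are annotated starts. Only islands that overlap the gene window are drawn. The wide 0 h domains upstream of Dlk1 are shorter or not drawn at 48 h in both vectors. The islands at the upstream start of Gata2 are absent at 48 h, while H3K4me1 is listed there at both times.

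Gata2 (chr6:88143885-88157024) lost the largest share of its acetylated length. With empty vector, H3K27ac covered 13.4 and 8.6 kb at 0 h and 3.6 and 2.8 kb at 48 h, and with SETD5-V5 7.4 and 9.2 kb and then 1.6 and 2.8 kb. The 0 h and 48 h values did not overlap in either vector, with log2 changes of -1.49 ± 0.27 (SE, limma adjusted p = 0.00222) and -1.56 ± 0.27 (adjusted p = 0.00273). The top island of the window had 37.3% to 85.8% of its list scoring above it. With islands above the median score of each list the change with SETD5-V5 was 0.00 (adjusted p = 1), and with numbers of islands the call with empty vector was lost (adjusted p = 0.159). The gene has 2 annotated start regions. The island at the upstream start (chr6:88142401-88145000) was listed in all 4 libraries at 0 h and in 0 of 4 at 48 h, whereas the island over the downstream start and following exons (chr6:88146201-88155200) was listed in all 8. H3K4me1 stayed at the upstream start, covering 1.6 kb of that element at 0 h and 1.4 kb at 48 h, and covered 29.4 and 26.4 kb of the window. The window also holds Dnajb8.

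Gata3 (chr2:9778705-9811661, minus strand) looked different from its relative. A single island over its internal start was found in all 8 H3K27ac libraries, 1.8 to 2.8 kb long, and no other H3K27ac island was found in its 133.0 kb window. The outer start had none, and no H3K4me1 or endogenous SETD5 island fell in the window. The log2 changes at 48 h were 0.10 ± 0.22 with empty vector and -0.10 ± 0.22 with SETD5-V5 (limma adjusted p = 0.77 and 0.792). The window holds 3 other coding genes, 4930412O13Rik, 9230102O04Rik and Taf3.

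Sox9 (chr11:112643538-112649074) had H3K27ac of 4.6 and 5.4 kb at 0 h and 6.0 and 8.0 kb at 48 h with empty vector. With SETD5-V5 it had 2.8 and 3.6 kb at 0 h and 4.6 and 7.4 kb at 48 h. Each 48 h value was above both 0 h values of its vector, but the increase passed the test in neither, at 0.41 ± 0.24 (SE, limma adjusted p = 0.225) and 0.71 ± 0.24 (adjusted p = 0.0578) on the log2 scale. All of it lay in 1 domain across the gene (chr11:112639401-112648000), apart from an island of 2.2 kb in library B at 48 h with SETD5-V5. With SETD5-V5 the increase was called when library A at 48 h was left out (1.01, adjusted p = 0.0418) and when coverage was scaled to the total of each list (0.71, adjusted p = 0.0451).

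The first start of each PDGF receptor gene had an H3K27ac island in all 8 libraries. Pdgfra (chr5:75548316-75594229) had few but high-ranking islands. H3K27ac covered 13.0 and 10.0 kb at 0 h and 14.4 and 12.4 kb at 48 h with empty vector, and 8.6 and 8.2 kb and then 14.0 and 12.2 kb with SETD5-V5. Its promoter domain (chr5:75545401-75559000) was present in all 8 libraries, and 55 to 215 islands of a list scored above its top island. The log2 change was 0.21 ± 0.17 (limma adjusted p = 0.367) with empty vector and 0.58 ± 0.17 (adjusted p = 0.0315) with SETD5-V5, which is the only higher call among the 8 genes in either vector. That call was lost when any 1 of the 4 SETD5-V5 cell libraries was left out (adjusted p 0.103 and 0.135 without 0 h libraries A and B, 0.175 and 0.0771 without 48 h libraries A and B), with 10 kb flanks (0.055), with equal numbers of islands (0.12) and with numbers of islands (0.0617). A region 5.9 kb upstream (chr5:75538001-75542400) was listed in both 0 h libraries with empty vector and in neither with SETD5-V5. Its 0 h islands ranked low, with 78.7% and 64.3% of their lists above them. At 48 h it was listed in library A with empty vector (1400 bp) and in library B with SETD5-V5 (1200 bp).

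Pdgfrb (chr18:61204804-61244715) had 27.8 and 27.8 kb of H3K27ac at 0 h and 28.4 and 18.6 kb at 48 h with empty vector, groups that overlapped. With SETD5-V5 it had 32.6 and 38.8 kb and then 18.2 and 19.8 kb, groups that did not overlap. The log2 changes were -0.26 ± 0.19 (limma adjusted p = 0.307) and -0.87 ± 0.19 (adjusted p = 0.00814). The gene body held 14.2 to 16.6 kb in all 4 SETD5-V5 cell libraries, so the difference lay mostly in the flanks, which overlap Slc6a7, Cdx1, Csf1r and Hmgxb3. In the ranking of each list the top island of the window was lower at 48 h, with 2.34% and 2.47% of islands above it at 0 h and 8.46% and 13.6% at 48 h with empty vector, and 1.18% and 0.951% and then 6.74% and 6.52% with SETD5-V5. The value of 8.46% (library A) belongs to an island over Slc6a7 (chr18:61150201-61157000), partly beyond the window. The island over the Pdgfrb start, the top island in the other libraries, had 14.5% above it there. Within 10 kb of the gene the change with SETD5-V5 was -0.25 ± 0.19 (adjusted p = 0.447). The SETD5-V5 cell call was also lost without library B at 0 h (adjusted p = 0.076) or without library A at 48 h (adjusted p = 0.0687), with islands above the median score (0.0979) and with numbers of islands (0.0588). With empty vector the change rested on which 48 h library was used, at -0.56 (adjusted p = 0.0378) without library A and 0.03 (adjusted p = 0.906) without library B.

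Runx2 (chr17:44632936-44951746, minus strand) was the longest gene of the group and carried the most islands. With empty vector, H3K27ac covered 89.6 and 77.8 kb at 0 h in 20 and 21 islands and 52.0 and 42.6 kb at 48 h in 13 and 15 islands. With SETD5-V5 it covered 94.1 and 96.8 kb and then 52.4 and 64.2 kb. The groups did not overlap in either vector, with log2 changes of -0.81 ± 0.14 (SE, limma adjusted p = 0.00162) and -0.71 ± 0.14 (adjusted p = 0.00492). Without library A at 48 h the latter was -0.56 (adjusted p = 0.0534), and with numbers of islands it was -0.28 (adjusted p = 0.113). Joined over the 8 libraries, the islands formed 21 elements, of which 10 were present in all 8 libraries.

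Both Runx2 promoters differed in their marks. The cluster of starts nearer the coding exons (chr17:44871642-44873597) had H3K27ac in all 8 libraries and no H3K4me1 within 500 bp of a start. The distal start had H3K27ac in 0 of 4 empty vector libraries and in 3 of 4 SETD5-V5 cell libraries, namely library A at 0 h and both at 48 h, over 1.0 to 1.8 kb (chr17:44950401-44952600). These islands ranked low, with 84% of the list above that at 0 h and 71.1% and 64.7% above those at 48 h. The lists of SETD5-V5 cells were also longer, with 36604 to 39949 islands against 31292 to 35460 with empty vector. At the distal start H3K4me1 was listed at both times. SETD5-V5 was listed at this start in both libraries at 6 h, over 2.2 kb each, and in neither at 0 h. Of the 15 elements present in both 0 h libraries with empty vector, 4 were in neither at 48 h. These include the intronic element printed above (chr17:44765401-44770400), 101.2 kb inside the gene from the nearest start, where H3K4me1 covered 1.6 kb at 0 h and 0 kb at 48 h.

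**Figure D3:**
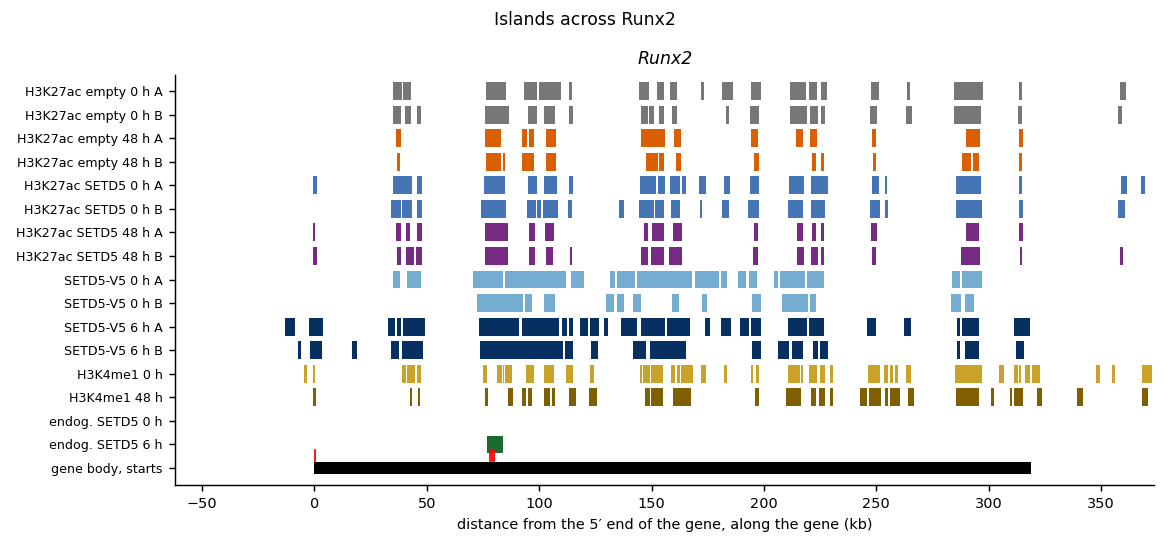
Islands of all 16 libraries across Runx2, by distance from the 5′ end of the gene (horizontal axis, kb). Each bar is an island, the black bar is the gene body and red ticks are annotated starts. At the distal start on the left, H3K27ac is listed only in SETD5-V5 cell libraries, by islands of low rank. Most intronic islands of 0 h are shorter or absent at 48 h.

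Runx1 (chr16:92601712-92826311, minus strand), of similar architecture, did not follow Runx2. H3K27ac covered 10.2 and 9.4 kb at 0 h and 13.4 and 11.8 kb at 48 h with empty vector, and 9.4 and 14.4 kb and then 11.4 and 13.2 kb with SETD5-V5. The log2 changes were 0.33 ± 0.20 (limma adjusted p = 0.228) and 0.07 ± 0.20 (adjusted p = 0.843), the groups overlapping with SETD5-V5. Its inner starts had an H3K27ac island in all 8 libraries and its outer start in none. The intronic element printed above (chr16:92619401-92622400) was absent from all 4 libraries at 0 h, covered 2.6 and 1.8 kb at 48 h with empty vector, and was listed in library B alone (1.8 kb) with SETD5-V5. SETD5-V5 covered 3.0 and 2.4 kb of it at 6 h.

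The second comparison asked whether SETD5-V5 changed this course. With SETD5-V5, 4 of the 8 genes were called lower at 48 h (Dlk1, Gata2, Pdgfrb and Runx2) and 1 higher (Pdgfra), beside 12.6% and 15.8% of all 16934 genes. The difference between the 48 h changes of both vectors, tested in the same limma fit, was called at 0 of the 8 genes, beside 3.61% of all genes. It came closest at Pdgfrb, at -0.61 ± 0.26 (unadjusted p = 0.0469, adjusted p = 0.246), the only one of the 8 genes with an unadjusted p under 0.05. At Dlk1 it was 0.07 ± 0.22, at Gata2 -0.07 ± 0.38 and at Runx2 0.11 ± 0.19. The Pdgfra change of SETD5-V5 cells was therefore not shown to differ from that of empty vector cells (0.37 ± 0.24, adjusted p = 0.438).

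**Figure D4:**
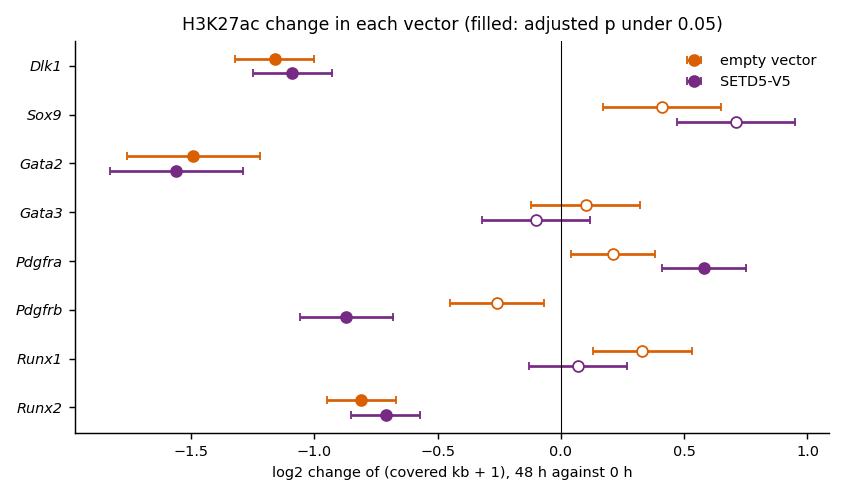
Log2 change of (covered kb + 1) from 0 h to 48 h for H3K27ac (horizontal axis), with its standard error, for each gene and vector. Filled points have a limma adjusted p under 0.05. Dlk1, Gata2 and Runx2 lie left of 0 in both vectors, at -0.71 to -1.56.

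Compared directly, SETD5-V5 and empty vector cells differed at 0 of the 8 genes at 0 h, beside 2.53% of all genes called, and at 0 of 8 at 48 h, beside 16.1%. The lowest p was that of Pdgfra at 0 h (log2 difference of -0.40 ± 0.17, SETD5-V5 minus empty vector, limma adjusted p = 0.294), the only one under 0.05 before adjustment. Runx2 at 48 h was 0.30 ± 0.14 higher with SETD5-V5 (adjusted p = 0.187). With coverage scaled to the total of each list, that difference was called (0.31, adjusted p = 0.0292). The comparisons at 48 h and over time share the empty vector libraries at 48 h.

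Counted in 200 bp bins, 150.2 kb of the 8 windows was acetylated in both 0 h libraries with empty vector, and 27% of it was absent from both 48 h libraries. Over all protein-coding windows that share was 23.7%. It was 56.8% at Gata2, 36.4% at Dlk1, 32.5% at Runx2, 18.6% at Pdgfrb and 0.0% at the other 4 genes. Of the 40.6 kb lost with empty vector, 69.5% was also absent from both 48 h libraries with SETD5-V5 and 12.8% was present in both, beside 66.2% and 17.5% over all windows. The share present depended on the libraries, at 15.2% with letter A alone (23.9% over all windows) and 38.7% with letter B alone (30.9%). At Gata2 all of the 4.2 kb lost was absent with SETD5-V5 too, while at Runx2 4.0 of 21.8 kb (18.3%) was present, against 50.5% with letter B alone. New acetylation was scarcer. Of the length acetylated in both 48 h libraries, 10.9% had been in neither 0 h library, beside 28.9% over all windows.

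The share of H3K4me1 length within H3K27ac islands was lower at 48 h at most of the 8 genes. Such a share also falls where H3K4me1 is gained, so it does not measure H3K4me1 kept where H3K27ac was lost. At Sox9 and Pdgfra it fell although 0.0% of the acetylated length of 0 h was lost in bins. At 0 h, on average 74% of the H3K4me1 length at Dlk1 lay within H3K27ac islands of empty vector cells, and at 48 h 43.2%. The share went from 29.6% to 11.4% at Gata2, from 53.8% to 35.5% at Runx2, from 62.3% to 45.2% at Pdgfrb, from 49% to 41.0% at Pdgfra and from 22.2% to 12.5% at Sox9, and it was higher at 48 h only at Runx1 (11.5% and 18.8%). Over all protein-coding windows it was 45.5% and 45%. These shares rest on 1 H3K4me1 library per time. The covered length of H3K4me1 was higher at 48 h at Sox9 (3.6 and 8.0 kb), Pdgfra (10.0 and 15.6 kb), Pdgfrb (34.2 and 43.4 kb) and Runx1 (22.6 and 28.2 kb), and lower at Runx2 (104.5 and 90.3 kb), the median gene having 9.8 and 11.6 kb. The nearest H3K4me1 island to the outer start of Runx1 lay 1.1 kb away at 0 h and 0.5 kb away at 48 h.

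All 8 genes had an H3K27ac island within 500 bp of at least 1 annotated start in both libraries of every condition, beside 45.2% to 47.8% of all genes. For SETD5-V5 this held at 5 of the 8 genes at 0 h and at 6 at 6 h, beside 4.7% and 21.5% of all genes. Gata2 and Gata3 were the exceptions at 6 h, each with an island in library A and none in library B. Runx1 had one in library A alone at 0 h and in both libraries at 6 h. Endogenous SETD5 was listed at a start of Sox9 and Pdgfra at 0 h and of Sox9, Pdgfra, Runx1 and Runx2 at 6 h, where 1.9% and 6.3% of all genes had one. With a promoter taken from 1000 bp upstream to 100 bp downstream, Sox9 had none at 0 h.

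The third comparison concerned where SETD5-V5 sat before and 6 h after MDI. Its islands covered far more of the genome at 6 h, and the median log2 change over 14682 genes was 1.81. In limma on the 4 SETD5-V5 libraries, 0 of the 7 genes tested were called (Gata3 had too little coverage to enter), beside 7.64% of all genes, and 0 had an unadjusted p under 0.05. Both PDGF receptor genes had a lower mean at 6 h. At Pdgfra SETD5-V5 covered 49.8 and 25.6 kb at 0 h and 22.4 and 7.8 kb at 6 h, and at Pdgfrb 38 and 23.4 kb and then 25.8 and 11.8 kb. The log2 changes were -1.36 ± 0.82 (SE, adjusted p = 0.335) and -0.74 ± 0.70 (adjusted p = 0.454). At 0 h these islands lay mostly over the gene bodies, 86.2% and 87.2% of the length at Pdgfra and 83.2% and 87.2% at Pdgfrb.

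**Figure D5:**
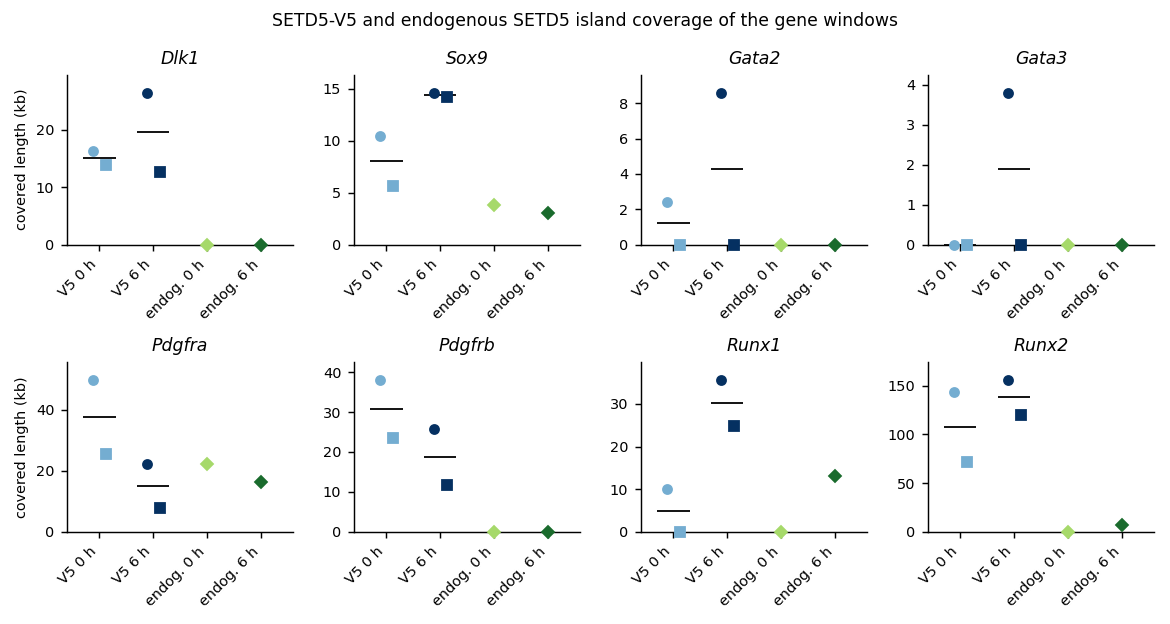
Length of each gene window covered by islands of SETD5-V5 and of endogenous SETD5 (vertical axis, kb), by time. Circles are libraries A, squares libraries B, bars their mean and diamonds single libraries. At Runx1 both 6 h values of SETD5-V5 lie above both 0 h values, and at Pdgfra both lie below.

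Runx1 went the other way, from 10.0 and 0.0 kb at 0 h to 35.6 and 24.8 kb at 6 h (3.21 ± 1.42, limma adjusted p = 0.234). Runx2 had the longest SETD5-V5 coverage at both times, 144.0 and 71.4 kb and then 155.8 and 120 kb (0.43 ± 0.42, adjusted p = 0.465). Sox9 had 10.4 and 5.6 kb and then 14.6 and 14.2 kb (0.83 ± 0.66, adjusted p = 0.403). Dlk1 had 16.2 and 13.8 kb and then 26.4 and 12.6 kb. Gata2 and Gata3 had SETD5-V5 islands in libraries A only, Gata2 with 2.4 kb at 0 h and 8.6 kb at 6 h and Gata3 with 3.8 kb at 6 h. The groups were apart at Sox9, Pdgfra and Runx1 and overlapped at Dlk1, Gata2, Pdgfrb and Runx2. How often groups are apart over all genes was not counted, so this sorting is no result about these genes. Libraries A and B held 16054 and 6666 islands at 0 h and 35573 and 27220 at 6 h.

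These values depend on the size of the lists. Scaled to the total covered length of each list, the median change of all genes was 1.06 and that of the 7 genes -1.19, and Pdgfra (-2.92, limma adjusted p = 0.044) and Runx2 (-1.19, adjusted p = 0.0393) were called lower, the latter against its direction above. With the 6666 highest-scoring islands of each list, Pdgfrb (-4.77, adjusted p = 0.0451) was called lower and Runx1 (4.23, adjusted p = 0.0451) higher. Without library A at 0 h, Runx1 (4.94, adjusted p = 0.0232) and Runx2 (0.93, adjusted p = 0.0366) were called higher, and without library B at 6 h Gata3 was. Endogenous SETD5 covered 22.2 kb at 0 h and 16.4 kb at 6 h at Pdgfra, 3.8 and 3.0 kb at Sox9, 0.0 and 13.0 kb at Runx1 and 0.0 and 7.0 kb at Runx2, and none of the other 4 windows. The 6 h list was also the longer one, and single libraries allow no test.

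Other genes of these pathways were counted from a fixed list of 21, of which 19 had enough H3K27ac coverage to test. Sox6 had no island in any of the 16 libraries, and Msx2 had H3K27ac only at 0 h with SETD5-V5 (1.0 and 1.8 kb). With empty vector, 6 of the 19 were called lower at 48 h and 2 higher, beside 14.0% and 25.1% of all genes, and with SETD5-V5 5 were lower and 2 higher, beside 12.6% and 15.8%. The median log2 change of the list was -0.32 and -0.21. Of the 4 PDGF ligand genes 1 was lower with empty vector and 3 with SETD5-V5, of the 3 RUNX partners 2 were lower and 1 higher with empty vector and 0 and 1 with SETD5-V5, and of the 2 GATA cofactors 1 was lower in each vector. Among 3 tested genes of the DLK1-SOX9 axis 1 was higher in each vector, and among 7 other anti-adipogenic factors 2 were lower with empty vector and 1 with SETD5-V5. The difference between the 48 h changes was called at 0 of 19, beside 3.61% of all genes.

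Pdgfb, a ligand of both PDGF receptors, changed most. Its H3K27ac coverage was 14.4 and 16.2 kb at 0 h and 2.0 and 1.8 kb at 48 h with empty vector, and 10.8 and 10.2 kb and then 0.4 and 1.0 kb with SETD5-V5 (log2 changes of -2.49 ± 0.21 and -2.78 ± 0.21). Sox5, a SoxD factor that works with SOX9 in cartilage, rose from 10.0 and 12.6 kb to 42.4 and 38.8 kb with empty vector (1.76 ± 0.22) and from 8.0 and 8.0 kb to 11.8 and 20 kb with SETD5-V5 (0.87 ± 0.22). Runx3, the third RUNX gene, rose from 4.8 and 4.2 kb to 14.0 and 16.6 kb (1.56 ± 0.17) and from 7.2 and 6.0 kb to 14.0 and 12.2 kb (0.89 ± 0.17). All 6 changes passed the limma test. The Sox5 call with SETD5-V5 was lost without either 0 h library (adjusted p = 0.0973 and 0.0969) and without library B at 48 h (adjusted p = 0.12). With islands above the median score only the Sox5 change with empty vector was still called. That of Pdgfb was then -2.24 (adjusted p = 0.0548) with empty vector and -0.92 (adjusted p = 0.438) with SETD5-V5, those of Runx3 had an adjusted p of 0.0612 and 0.489, and that of Sox5 with SETD5-V5 of 0.0535. With numbers of islands neither Sox5 change was called (adjusted p = 0.0884 and 0.127).

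Between vectors at 48 h, 3 of the 19 listed genes were higher with SETD5-V5 and 3 lower, beside 1266 higher and 1468 lower of all 16934 genes (16.1%). At 0 h 0 of 19 were called, beside 2.53% of all genes. The largest differences were at Pdgfd, another PDGF ligand gene (0.0 and 0.0 kb with empty vector, 2.8 and 4.0 kb with SETD5-V5), at Sox5 (-1.34 ± 0.22 on the log2 scale) and at Pdgfb (-0.79 ± 0.21). The Pdgfd call was lost without empty vector library A (adjusted p = 0.0513 in limma) or SETD5-V5 library B (0.071) at 48 h, the Sox5 call without empty vector library A at 48 h (0.0523), and the Pdgfb call without any 1 of 7 of the 8 libraries (all but SETD5-V5 library B at 48 h), at 0.0534 to 0.199. With numbers of islands none of these 3 differences was called (adjusted p = 0.168 at Pdgfd, 0.451 at Sox5 and 1 at Pdgfb), with islands above the median score neither that of Sox5 (0.0622) nor that of Pdgfb (0.572), and that of Pdgfb was -0.28 (0.13) with a pseudocount of 5 kb and 0.00 (1) with 10 kb flanks. For SETD5-V5 itself 1 of 18 tested genes was called, beside 7.64% of all genes. It was Runx3, with 0.0 and 0.0 kb at 0 h and 14.0 and 7.6 kb at 6 h. That call was lost without library B at 0 h (adjusted p = 0.153), with a pseudocount of 5 kb (0.0945), with islands above the median score (0.0644) and with numbers of islands (0.105).

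For Runx2 and Pdgfrb, 2 of the 3 genes with the widest range of H3K27ac coverage, the genes of most similar coverage over the 8 libraries were sought among those with at least 5 kb on average and over 1 Mb away. They were Large, Tmem9b and Fads6 for Runx2 (Pearson r of 0.995, 0.988 and 0.987), and Atg13, Gm9857 and Mmgt2 for Pdgfrb (0.988, 0.982 and 0.977). The points share their 8 libraries, and 259 of 12112 candidate genes had r over 0.95 with Runx2 and 16 of 12105 with Pdgfrb.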

How the data were processed

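The authors mapped reads to mm9 and called enriched islands in each library separately with SICER, per the labels and the study's methods (Bowtie2 and deepTools are also named), with a wider gap for SETD5 than for histone marks. The deposited lists give chromosome, start, end and the score of each island in the authors' own unit. The score was used only to rank islands within a list. In the files, islands begin on a grid of 200 bp and lie at least 600 bp apart in the lists of histone marks, or 800 bp in those of SETD5. The 16 lists were told apart by their labels, and 0 pairs were identical.

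Genes are those of the NCBIM37 (mm9) GENCODE annotation. Covered kb per gene window was tested with limma 3.58.1 (R 4.3.3; trend, log2(covered kb + 1), genes with a mean of at least 1 kb, adjusted p under 0.05), first tested on simulated data. Starts within 500 bp of each other were taken as 1. Overlap was at least 1 bp. The A and B libraries are stated as biological replicates, and their letters were not used to pair the samples in the main fit. Genes and lists were chosen with earlier results of these data known. All 8 genes are named, other pathway genes only where called, up to 3 per comparison by size. The alternatives tried were pseudocounts of 0.2 and 5 kb, no filter, 10 kb flanks, equal numbers of islands, islands above the median score, scaling to total covered length, numbers of islands, a replicate block, each library left out, promoters from 1000 bp upstream to 100 bp downstream, and single letters. Islands within a window can belong to neighbouring genes. Precision cannot be given per island, since no reads are listed. The genes of most similar coverage to Dlk1 are not reported here.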

Additional observations from a re-analysis of the deposited data

How the results depend on the processing

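With empty vector, 3 of the 8 genes were called at 48 h, beside 6628 of all 16934 genes. When islands were counted instead of their length it was 1 (Runx2), beside 3202 of 16934. With SETD5-V5, 5 were called, beside 4809 of 16934 genes. It was 3 with 10 kb flanks, beside 2958 of 13639. With islands above the median score it was 3 (without Gata2 and Pdgfrb), beside 4075 of 15292. With island numbers it was 1, beside 2743 of 16934. The replicate block gave 6, beside 4562 of 16934, and added Sox9 (adjusted p = 0.0269 in limma). With a library left out the called genes also changed in both vectors. Between vectors 0 were called, beside 429 of 16934 genes at 0 h and 2734 at 48 h. At 0 h it was 1 with islands above the median score (Gata2), beside 768 of 15292. At 48 h it was 1 with scaling to total length (Runx2), beside 3918 of 16924. For SETD5-V5, 0 of 7 genes were called, beside 1121 of all 14682. It was 2 of 6 with equal numbers of islands, beside 739 of 9401, and 2 of 7 with scaling, beside 2160 of 13913. The called genes also changed with the library left out. The SETD5-V5 change at Runx2 turned from 0.43 to -1.19 with scaling, which divides by longer 6 h lists. The replicate block also ended the Runx3 call for SETD5-V5 (adjusted p = 0.0563 in limma) and changed no other call of a named gene. Deviations of libraries with the same letter correlated at -0.03 to 0.12 between conditions, which does not tell whether A and B were processed as sets. The difference between vectors in the 48 h change stayed at 0 of the 8 genes under each alternative that kept all libraries. Beside it, 305 of 13639 genes were called with 10 kb flanks and 1450 of 16924 with scaling. In fits without 1 SETD5-V5 cell library few or no genes passed at all, so those fits could not decide this. Of the acetylated length at 0 h, 27% was lost with both letters, 45.6% with A alone, 46.7% with B alone and 24.1% with equal numbers of islands. Over all protein-coding windows these shares were 23.7%, 36.5%, 34.2% and 23.1%. Of 829 values recomputed for single genes, 753 were counted as the same. These kept their side of the threshold and their direction or, where not called, lay within 1 SE of the main value. Over all genes, the calls moved by over 1.5 times in every comparison, for SETD5-V5 from 1121 to between 0 (pseudocount of 5 kb, replicate block) and 6189 (without library A at 0 h), between vectors at 0 h from 429 to between 41 and 960, at 48 h from 2734 to 728 at the lowest, in the 48 h change from 6628 to 3202 (empty vector) and from 4809 to 2743 (SETD5-V5), and in the difference of changes from 612 to between 0 and 1450. Causes were not tested.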
